A study of Mus musculus with 12 samples.

Results

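The genes described here are 5 members of the mouse Hoxa cluster, Hoxa7, Hoxa9, Hoxa10, Hoxa11 and Hoxa13, in cultured germline stem cell lines. They were picked by name, as genes whose levels had been seen to differ among the germline stem cell-like lines of these data, and they are 5 of the 26219 genes in the table. The levels in those lines therefore chose the genes, and they are given as a description without a test. All 5 are low: no member went above 23.7 RPM (reads scaled to a common total per library) in any library, and 2 of the 5, Hoxa10 and Hoxa13, passed the low-value filter of 5 RPM or more in 2 or more libraries. They passed it through GSCLC libraries alone, 5 for Hoxa10 and 4 for Hoxa13.

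The data are 12 SC3-seq libraries, a method that sequences the 3′ ends of amplified cDNA, made from 1 ng of total RNA each. GSCLC_1, GSCLC_2, GSCLC_3 and GSCLC_4 are germline stem cell-like cell lines from testes reconstituted and kept in culture, in a study of spermatogonial stem cell activity made from mouse pluripotent stem cells. Condition 2 (GSCLC_2 and GSCLC_3) kept the reconstituted testis at 37°C for 2 weeks and at 34°C for 1 week, and condition 1 (GSCLC_1 and GSCLC_4) kept it at 34°C for 3 weeks. GSC_1 and GSC_2 are germline stem cell lines, that is spermatogonial stem cells expanded in culture, from separate testes at postnatal day 7. All 6 lines share the background C57BL/6 x 129/SvJcl, the AcrAct_EGFP reporter, and one medium with GDNF, bFGF, LIF and EGF. Each line was sequenced as 2 replicates of its culture. A line is thus 1 derivation, and the labels name no donor animal.

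Hox genes encode homeodomain transcription factors that give cells their position along the body and limb axes. In the embryo the genes of a cluster are switched on in their order along the chromosome, from the anterior genes at one end to the posterior genes at the other (Hoxa13 in this cluster), and Polycomb and trithorax-group proteins then hold them off or on. Hox proteins of the posterior groups are best known from the trunk, limbs, kidney and reproductive tract, and bind DNA with or without cofactors of the TALE homeodomain class such as Pbx and Meis.

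The deposited low RPM values lie on even steps, which imply 3031705 to 4644183 counted reads per library, so 3 reads correspond to 0.646 to 0.990 RPM. Intervals and floors drawn from these reads cover counting error only: the cDNA was amplified, and no molecular identifier tells copies apart. Between 15895 and 16529 genes were above 0 in a library. A set of 15 germ cell and spermatogonial markers, among them Dazl and Ddx4, summed to 4160 to 5270 RPM in GSCLC libraries and 4401 to 5149 RPM in GSC libraries, so markers of the labelled cell type were present in all 12 libraries. In bulk RNA like this, fewer expressing cells and less RNA per cell cannot be told apart.

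Hoxa10, a posterior gene needed for lumbar vertebrae and for the uterus and testis descent in mice, lies on the minus strand of chromosome 6 at chr6:52231197-52240854 (GRCm38, RefSeq annotation). It had 4.28 and 6.38 RPM in GSCLC_1, 20.6 and 14.1 RPM in GSCLC_2, 0.283 and 0.270 RPM in GSCLC_3, and 15.8 and 23.7 RPM in GSCLC_4, against 3.91 and 1.51 RPM in GSC_1 and 2.95 and 2.04 RPM in GSC_2. The libraries of GSCLC_2 and GSCLC_4 lay above all others and overlapped each other. GSCLC_1 came next, the 2 GSC lines overlapped, and both GSCLC_3 libraries lay below every other library. Over both libraries of a line, these levels rest on 136 reads in GSCLC_2 and 135 in GSCLC_4 but on 2 reads in GSCLC_3, for which the exact 95% Poisson interval is 0.0334 to 0.997 RPM.

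Hoxa13, the most posterior gene of the cluster, patterns the digits, hindgut and external genitalia and lies at chr6:52258853-52260880. It had 3.14 and 2.84 RPM in GSCLC_1, 10.3 and 12.3 RPM in GSCLC_2, 0.283 and 0 RPM in GSCLC_3, and 12.3 and 10.6 RPM in GSCLC_4, against 4.24 and 3.45 RPM in GSC_1 and 1.23 and 1.28 RPM in GSC_2. Again GSCLC_2 and GSCLC_4 overlapped at the top. Below them the order was GSC_1, GSCLC_1, GSC_2 and GSCLC_3, and no neighbours in that order overlapped. GSCLC_3 had 1 read of Hoxa13 in both libraries together, with an interval of 0.00349 to 0.769 RPM.

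Hoxa11, which shapes the forearm, the kidney and the uterus, lies at chr6:52242105-52245810. Its level was 1.43 and 0.709 RPM in GSCLC_1, 3.01 and 4.96 RPM in GSCLC_2, 0 and 0.270 RPM in GSCLC_3, and 6.51 and 1.98 RPM in GSCLC_4, against 0 and 0.431 RPM in GSC_1 and 0.246 and 0 RPM in GSC_2. GSCLC_2 and GSCLC_4 overlapped at the top, GSCLC_1 stood apart below them, and GSC_1, GSCLC_3 and GSC_2 overlapped near 0. The GSC lines held 2 reads (GSC_1) and 1 read (GSC_2), so the exact 95% Poisson intervals reach up to 0.937 RPM in GSC_1 and 0.698 RPM in GSC_2.

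Hoxa9, a gene of the thoracic and lumbar trunk that also acts in blood stem cells, lies at chr6:52223097-52227370. It had 0.856 and 0.236 RPM in GSCLC_1, 2.01 and 2.35 RPM in GSCLC_2, 0 in both GSCLC_3 libraries, and 2.00 and 3.30 RPM in GSCLC_4, against 0.978 and 1.72 RPM in GSC_1 and 0 and 0.255 RPM in GSC_2. GSCLC_2 and GSCLC_4 overlapped at the top, GSC_1 stood apart as the next line, and GSCLC_1 and GSC_2 overlapped. No read in GSCLC_3 allows a level of up to 0.414 RPM over its 2 libraries by the floor of 3 reads, and up to 0.509 RPM by the exact 95% Poisson interval.

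Hoxa7, a gene of the thoracic trunk at chr6:52215623-52218573, was the weakest member. It had 0.285 and 0.473 RPM in GSCLC_1, 1.25 and 0 RPM in GSCLC_2, 0 in both GSCLC_3 libraries, and 1.75 and 0.660 RPM in GSCLC_4, against 0.326 and 0 RPM in GSC_1 and 0 and 0.510 RPM in GSC_2. These are 1 to 9 reads per line outside GSCLC_3, and every pair of neighbours in the order of lines overlapped. Both GSCLC_4 libraries lay above all libraries of the lines other than GSCLC_2, and GSCLC_1 lay above GSCLC_3, on counts this low. One of its 4 annotated coding transcripts ends within a noncoding RNA, Hoxaas3, on the opposite strand, and whether counting used the strand is not stated in the sources used here. The last 300 bases of the other 4 members' coding transcripts overlap no other annotated gene (GENCODE M21).

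**Figure D1:**
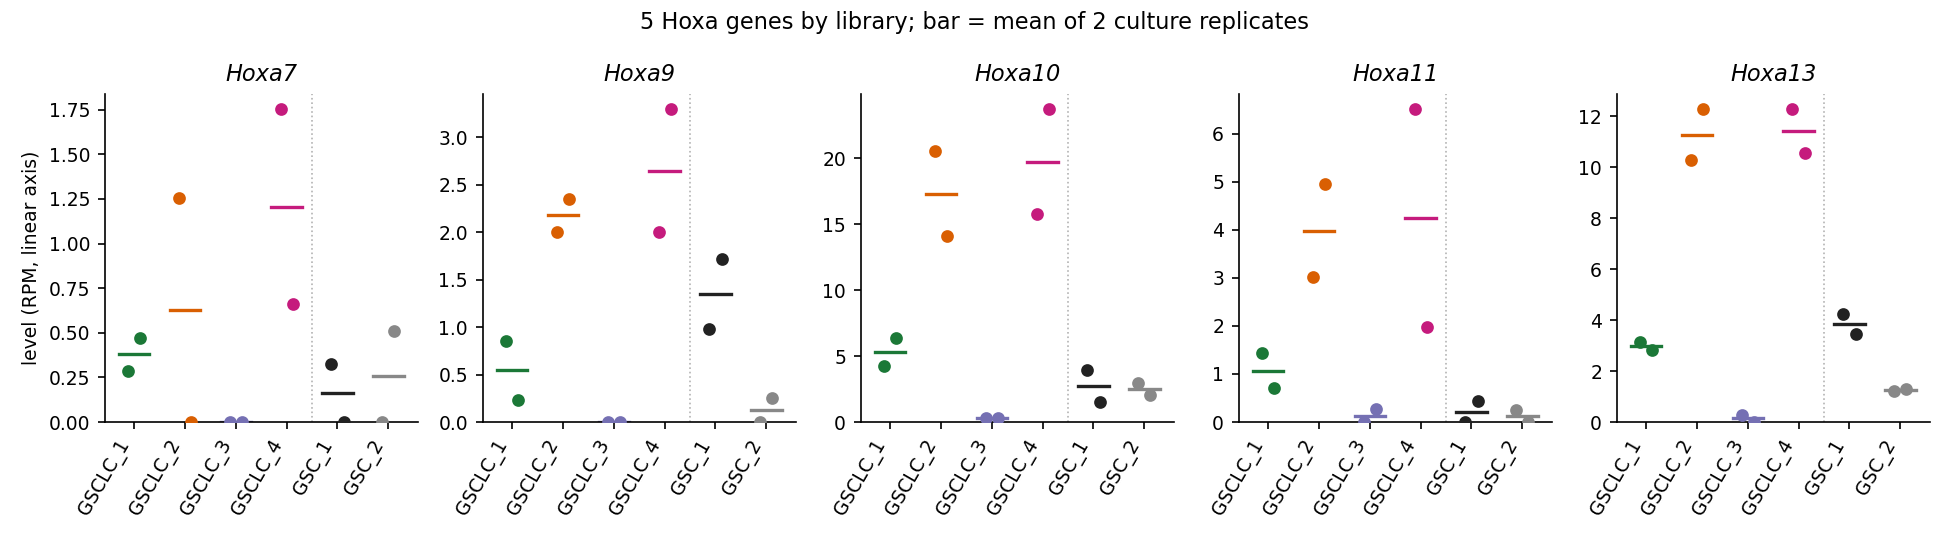
Level in RPM (linear axis, own scale per gene) of the 5 Hoxa genes; each point is a library and each bar the mean of a line's 2 culture replicates. GSCLC_2 and GSCLC_4 have the highest line means for every gene, and GSCLC_3 is at or near 0, with at most 0.283 RPM in a library.

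The sequences just upstream of the start sites differ among the members mainly in CpG content, a feature tied to Polycomb binding and DNA methylation at promoters of developmental genes. They are printed for Hoxa13 and Hoxa9, the extremes, and for the CpG-rich one of the 2 annotated starts of Hoxa10, as 250 bases 5′ to 3′ on the minus strand of GRCm38.p6 from RefSeq, with each CpG in capitals.
Hoxa13 (chr6:52260881-52261130): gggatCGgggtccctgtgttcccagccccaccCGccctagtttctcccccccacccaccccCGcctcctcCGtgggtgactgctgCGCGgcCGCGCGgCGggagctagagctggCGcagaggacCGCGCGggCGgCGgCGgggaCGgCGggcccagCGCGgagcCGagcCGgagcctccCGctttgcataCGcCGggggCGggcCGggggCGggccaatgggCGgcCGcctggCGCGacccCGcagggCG
Hoxa10 (chr6:52234940-52235189): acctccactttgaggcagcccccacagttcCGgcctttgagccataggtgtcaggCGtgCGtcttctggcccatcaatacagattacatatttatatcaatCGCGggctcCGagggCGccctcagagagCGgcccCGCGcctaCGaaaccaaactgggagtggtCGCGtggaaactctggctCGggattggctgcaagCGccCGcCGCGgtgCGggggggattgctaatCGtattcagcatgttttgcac
Hoxa9 (chr6:52227371-52227620): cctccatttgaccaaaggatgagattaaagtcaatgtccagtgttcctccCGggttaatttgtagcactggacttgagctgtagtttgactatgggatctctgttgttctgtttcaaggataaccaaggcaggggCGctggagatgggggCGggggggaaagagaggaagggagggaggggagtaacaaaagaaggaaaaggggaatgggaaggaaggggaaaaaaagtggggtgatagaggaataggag

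The Hoxa13 window holds 35 CpGs, more than 97.0% of 32851 RefSeq promoter windows of this length, whose median is 6. The Hoxa10 window shown holds 20, more than 82.1% of promoters, while the one before its distal start holds 7. Hoxa11 had 13 CpGs, Hoxa7 had 7 and Hoxa9 had 3, so the members share no one promoter class by this measure. TTTATNG, a short form of the site bound by CDX factors, is on either strand in 9.81% of all windows and in none of the members' 6. The short MEIS and PKNOX site, TGACAG, is in 15.9% of all windows and in none of the members' 6. Methylation and factor binding were not measured here.

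Summed over the 5 genes, the level was 10.3 ± 0.461 RPM in GSCLC_1, 35.4 ± 2.44 RPM in GSCLC_2, 0.552 ± 0.0186 RPM in GSCLC_3 and 39.3 ± 1.35 RPM in GSCLC_4, against 8.28 ± 1.66 RPM in GSC_1 and 4.26 ± 0.246 RPM in GSC_2 (SD, n = 2 culture replicates each). The 2 replicates of a line thus lay close together relative to the distance between most lines. Behind these sums stand 80, 277, 4 and 275 reads in GSCLC_1 to GSCLC_4, and 62 and 34 reads in GSC_1 and GSC_2.

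The shares of Hoxa10, Hoxa13 and Hoxa11 in that sum were alike in GSCLC_1, GSCLC_2 and GSCLC_4, although its size differed. Hoxa10 gave 51.7% of the summed RPM in GSCLC_1, 49.0% in GSCLC_2 and 50.3% in GSCLC_4, against 32.7% in GSC_1 and 58.7% in GSC_2. Hoxa13 gave 29.0% in GSCLC_1, 31.9% in GSCLC_2 and 29.1% in GSCLC_4, against 46.4% in GSC_1 and 29.4% in GSC_2. Hoxa11 gave 10.4%, 11.3% and 10.8% in those 3 GSCLC lines in the same order, against 2.60% in GSC_1 and 2.89% in GSC_2. Hoxa9 gave 5.30% in GSCLC_1, 6.15% in GSCLC_2 and 6.75% in GSCLC_4, against 16.3% in GSC_1 and 3.00% in GSC_2. Hoxa7, with 1 to 9 reads per line, varied more widely, with 3.68% in GSCLC_1, 1.77% in GSCLC_2 and 3.07% in GSCLC_4, against 1.97% in GSC_1 and 5.99% in GSC_2. Shares are of RPM at 3′ ends, with no division by length, and are compared between lines and not between genes. The GSC shares rest on few reads, and the 4 reads of GSCLC_3 are too few for a share to be compared. Those of GSCLC_1 also rest on few, with 42 reads of Hoxa10, 23 of Hoxa13, 8 of Hoxa11 and 4 of Hoxa9. The exact 95% Poisson interval of Hoxa11 in GSCLC_1 is 0.447 to 2.04 RPM, so its share is known only loosely. The shares were chosen for display after the levels were known and were not tested.

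**Figure D2:**
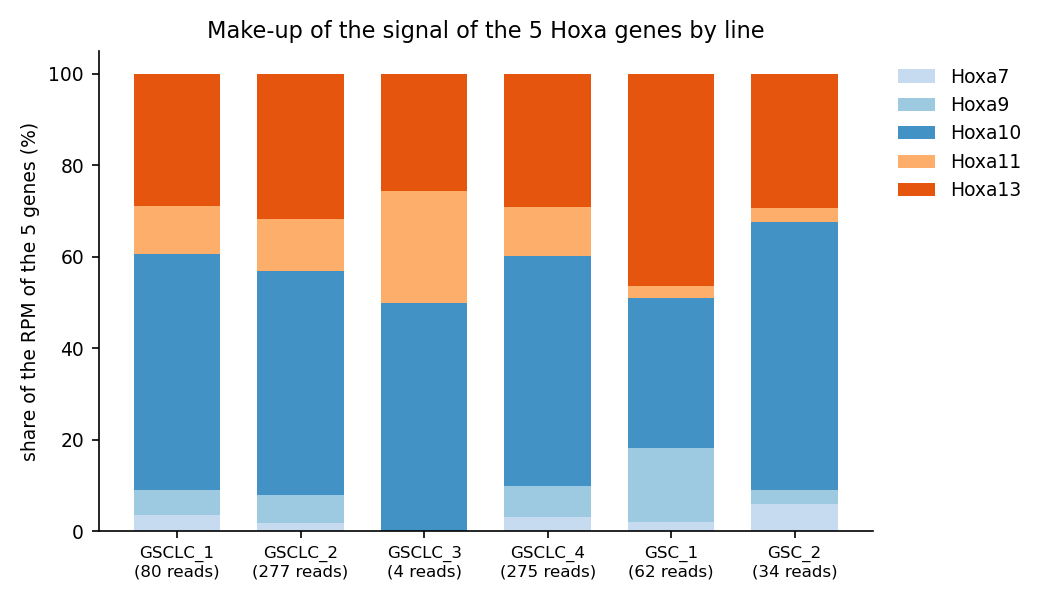
Share (%) of each gene in the summed RPM of the 5 genes, by line, with the implied reads behind each bar under its name. GSCLC_1, GSCLC_2 and GSCLC_4 have alike bars but for Hoxa7, with Hoxa10 at 49.0% to 51.7%; the GSCLC_3 bar stands on 4 reads.

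Across the 12 libraries the members moved together to unequal degrees. On log2(RPM + 1), Pearson's r was 0.935 between Hoxa10 and Hoxa13 and 0.922 between Hoxa9 and Hoxa13, and it was lowest, 0.472, between Hoxa7 and Hoxa9. These are descriptions over 12 libraries that share 6 lines, for genes picked for such a difference. The low values of Hoxa7 leave its correlations little range.

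Higher and lower lines occurred in both culture conditions of the reconstituted testis. Condition 2 holds GSCLC_2 near the top and GSCLC_3 at the bottom, and condition 1 holds GSCLC_4 at the top and GSCLC_1 between. Hoxa10 averaged 8.80 ± 12.1 RPM in condition 2 and 12.5 ± 10.2 RPM in condition 1 (SD, n = 2 lines each). Hoxa13 averaged 5.71 ± 7.87 RPM in condition 2 and 7.20 ± 5.96 RPM in condition 1. For both genes the distance between the 2 lines of a condition exceeded the difference between conditions. Differences among these lines chose the genes, so no test is given.

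On the log2(RPM + 1) scale, the range of the 4 GSCLC line means was 4.0 for Hoxa10 and 3.45 for Hoxa13, against a median of 0.526 over the 11788 genes tested. A range of at least 2 was found in 179 of these genes, 1.52%, and both members belong to them by the way they were picked. The ranges of Hoxa11, Hoxa9 and Hoxa7, which are below the filter, were 2.12, 1.85 and 1.10.

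The comparison of GSCLC with GSC lines was not the one the genes were picked on, but it shares the GSCLC libraries. Both tested genes passed the filter through these libraries, and the differences among GSCLC lines that chose the genes also enter the spread of the comparison. Its outcome for these genes is therefore given as a description, and nothing is read from it. With lines as the units (4 against 2), Hoxa10 averaged 10.7 ± 9.37 RPM in GSCLC lines and 2.60 ± 0.15 RPM in GSC lines (SD). Its log2 difference was 1.08 ± 0.86 (SE; 95% interval -0.81 to 2.96; adjusted p = 0.573, limma with Benjamini-Hochberg adjustment over 11788 genes). Hoxa13 averaged 6.45 ± 5.76 RPM in GSCLC lines and 2.55 ± 1.83 RPM in GSC lines, a difference of 0.63 ± 0.81 (95% interval -1.14 to 2.41; limma adjusted p = 0.742). Neither passed the threshold of 0.05, where 3.02% of all genes tested did (356 of 11788). The unadjusted p was 0.237 for Hoxa10 and 0.452 for Hoxa13. For both genes the GSC line means fell inside the range of the GSCLC lines, while line means of the 2 kinds did not overlap in 28.6% of all genes tested.

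The value for Hoxa10 depended on 1 line. Without GSCLC_3, the line where it was lowest, its difference was 1.92 ± 0.45 and passed the threshold. Since the gene was picked for differing among these lines, nothing is read from that either. Over 27 alternatives its difference ran between 0.59 and 1.92, and that of Hoxa13 between 0.08 and 1.36.

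The remaining members could be fitted with a lower filter of 1 RPM in 2 libraries or with none, and differences are given for the first, without a p, since they too passed it mainly where they are high. Hoxa11 averaged 2.36 ± 2.07 RPM in GSCLC lines and 0.169 ± 0.0652 RPM in GSC lines, a log2 difference of 1.22 ± 0.52 (SE). Hoxa9 averaged 1.34 ± 1.27 RPM in GSCLC lines and 0.739 ± 0.865 RPM in GSC lines, a difference of 0.34 ± 0.50. Hoxa7 averaged 0.553 ± 0.506 RPM in GSCLC lines and 0.209 ± 0.0652 RPM in GSC lines, a difference of 0.29 ± 0.34.

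The 2 GSC lines did not enter the choice of the genes, but both tested genes passed the filter through GSCLC libraries alone. The outcome is therefore a description, and nothing is read from it. Hoxa10 differed by -0.02 ± 0.44 between GSC_2 and GSC_1 (95% interval -0.93 to 0.90; limma adjusted p = 0.997). Hoxa13 was at 1.25 RPM in GSC_2 and 3.84 RPM in GSC_1, a log2 difference of -1.10 ± 0.43 (95% interval -1.99 to -0.21; limma unadjusted p = 0.018 and adjusted p = 0.616). It did not pass, where 0.0509% of all genes did (6 of 11788, with 0.0339% higher and 0.017% lower in GSC_2). These p-values rest on culture replicates and speak for these 2 lines only.

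Of the other Hoxa genes described here, Hoxa2 to Hoxa6, Hoxa3 alone gave the GSCLC line means the order of the 5-gene sum. Its means in GSCLC_1 and GSCLC_2 lay close together, and its GSCLC_3 libraries were at 3.675 and 0 RPM. GSCLC_4 stood apart for Hoxa3, Hoxa4 and Hoxa5 by line mean. Hoxa3, a gene of the pharyngeal arches, had a mean of 2.35 RPM in GSCLC_1, 2.43 RPM in GSCLC_2, 1.84 RPM in GSCLC_3 and 10.5 RPM in GSCLC_4, against 0.163 RPM in GSC_1 and 0 in GSC_2. Hoxa4 had a mean of 3.69 RPM and Hoxa5 of 1.4 RPM in GSCLC_4, and both had line means below 1 RPM in the other 5 lines. GSCLC_2, which was level with GSCLC_4 for the 5 members, had 3.18 RPM summed over these 5 other genes, where GSCLC_4 had 16.1 RPM. Hoxa2 stayed below 1 RPM in every line mean. Hoxa6 was at 0 in all 12 libraries.

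Hoxa3 passed the low-value filter through the 2 GSCLC_4 libraries alone. Its outcome is therefore a description, and nothing is read from it. It differed between GSCLC and GSC lines by 1.93 ± 0.60 (limma adjusted p = 0.119) and did not pass the threshold. Without GSCLC_3 the difference was 2.23 ± 0.57 (limma adjusted p = 0.0472).

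Other transcripts at the posterior end were also highest in GSCLC_4. Hoxa11as, an antisense RNA of Hoxa11 (Hoxa11os in RefSeq), was at 0.970 RPM in GSCLC_1, 3.95 RPM in GSCLC_2, 0 in GSCLC_3 and 8.38 RPM in GSCLC_4, against 2.17 RPM in GSC_1 and 1.0 RPM in GSC_2. All 4 libraries of GSCLC_2 and GSCLC_4 lay above the other 8, as they did for Hoxa9, Hoxa10, Hoxa11 and Hoxa13. Use of strand in counting is not stated, but the last 300 bases of the Hoxa11 coding transcript overlap no other annotated gene; the 3′ end of Hoxa11as was not checked. Evx1, a homeobox gene just beyond Hoxa13, was at 4.27 RPM in GSCLC_1, 4.88 RPM in GSCLC_2, 0 in GSCLC_3 and 8.30 RPM in GSCLC_4, against 2.28 RPM in GSC_1 and 1.13 RPM in GSC_2. It was thus also lowest in GSCLC_3, and its means in GSCLC_1 and GSCLC_2 lay close together. Its antisense neighbour 5730457N03Rik (Evx1os in RefSeq) was at 0.664, 2.80, 0.135 and 4.19 RPM in GSCLC_1 to GSCLC_4, against 0.649 RPM in GSC_1 and 0.246 RPM in GSC_2. Neither Hoxa11as (0.28 ± 0.75, limma adjusted p = 0.888) nor Evx1 (0.66 ± 0.72, limma adjusted p = 0.692) passed between GSCLC and GSC lines. Both genes passed the low-value filter through GSCLC libraries alone, so nothing is read from this outcome.

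**Figure D3:**
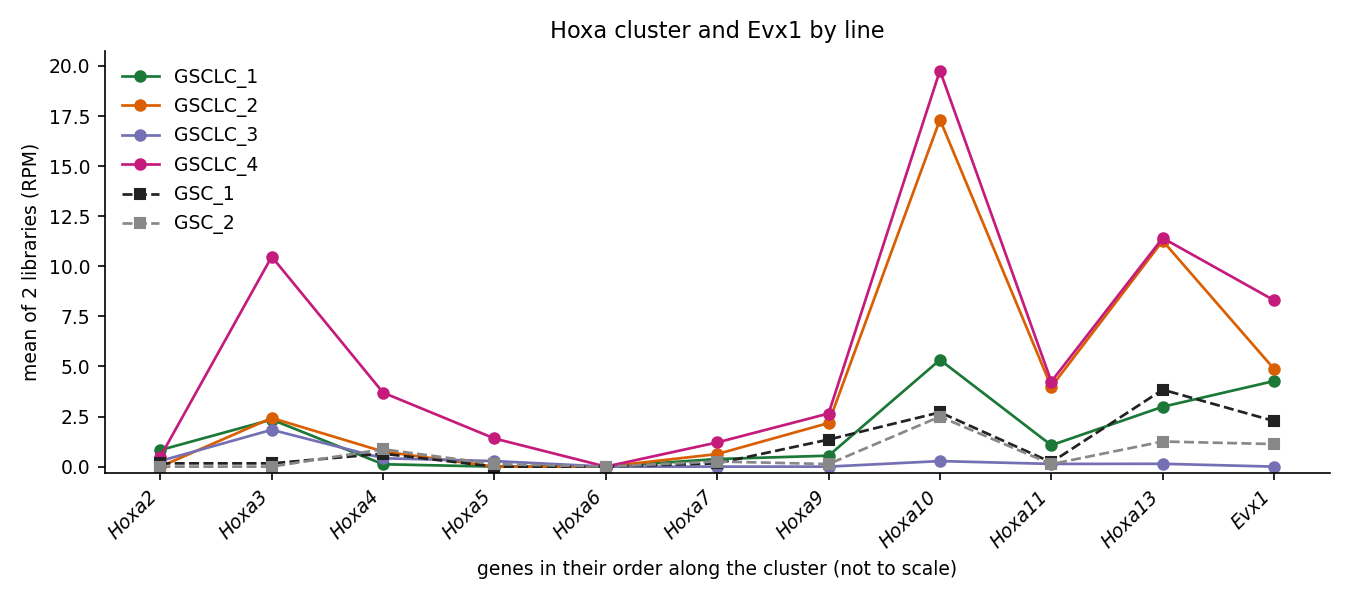
Mean level (RPM) of each line for 10 Hoxa genes and Evx1 in chromosomal order (not to scale); GSCLC lines are circles with full lines and GSC lines squares with dashed lines. GSCLC_2 and GSCLC_4 run together at Hoxa9 to Hoxa13 and part at Hoxa3 to Hoxa5, where Hoxa3 is at 10.5 RPM in GSCLC_4 and 2.43 RPM in GSCLC_2.

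Of the other 3 Hox clusters, Hoxd gave the GSCLC lines the same order as the 5 genes, and Hoxb and Hoxc gave another. The Hoxb genes summed to 85.0 to 137 RPM in GSCLC lines and 440 to 468 RPM in GSC lines, with both GSC lines highest and GSCLC_4 below GSCLC_1 and GSCLC_2. The Hoxc genes summed to 11.8 RPM in GSCLC_1, 9.88 RPM in GSCLC_2, 3.31 RPM in GSCLC_3 and 36.0 RPM in GSCLC_4, against 22.3 RPM in GSC_1 and 15.6 RPM in GSC_2. The Hoxd genes summed to 2.58 RPM in GSCLC_1, 3.33 RPM in GSCLC_2, 1.4 RPM in GSCLC_3 and 6.58 RPM in GSCLC_4, against 2.65 RPM in GSC_1 and 3.16 RPM in GSC_2. GSCLC_3 had the lowest line mean in all 4 clusters, with overlap between libraries in some. The Hoxc sum of GSCLC_2 lay below that of both GSC lines, although the line was near the top for the 5 Hoxa genes.

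**Figure D4:**
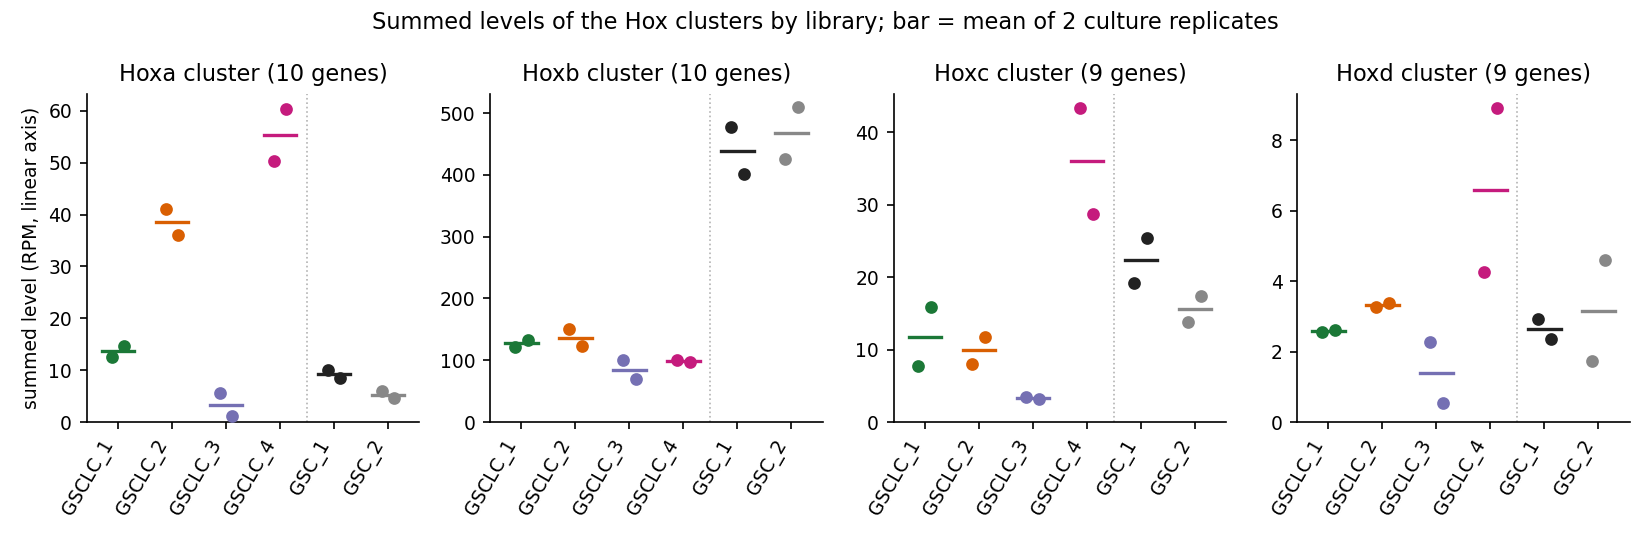
Summed level (RPM, linear axis, own scale per cluster) of each Hox cluster; points are libraries and bars line means. The sums of 10 Hoxa genes run between 3.37 and 55.4 RPM in GSCLC lines, and the Hoxb sums are 85.0 to 137 RPM in GSCLC lines and 440 to 468 RPM in GSC lines.

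Among 16 Hox genes of groups 7 to 13 outside the Hoxa cluster, 7 were tested. Of these, 3 fell in GSCLC relative to GSC lines and none rose, against 1.81% lower and 1.21% higher over all genes. They were Hoxb7 (-1.48 ± 0.21, limma adjusted p = 0.00458), Hoxb8 (-2.21 ± 0.25, limma adjusted p = 0.00131) and Hoxb9 (-2.45 ± 0.29, limma adjusted p = 0.00147). The median over the 7 was -0.71, against -0.01 over all genes tested. So the Hoxb paralogues of Hoxa7 and Hoxa9 were lower in GSCLC lines, while Hoxa7 and Hoxa9 themselves were too low to be tested at the main filter.

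Genes that act on Hox expression or with Hox proteins were compared over lists. Of 29 Polycomb subunits, the repressors of silent Hox clusters, 28 were tested, 1 rose and 2 fell, against 1.21% higher and 1.81% lower over all genes. Cbx2, a chromodomain subunit, rose by 0.56 ± 0.12 (limma adjusted p = 0.0321), and Phf1 (-0.78 ± 0.19, limma adjusted p = 0.0473) and Scmh1 (-0.84 ± 0.17, limma adjusted p = 0.0252) fell. The call of Phf1 held in 6 of 27 alternatives, that of Cbx2 in 17 and that of Scmh1 in 22. The list median was 0.06. None of 24 MLL and trithorax-group factors, which hold Hox genes on, passed (median -0.11). None of the 7 tested TALE cofactors out of 11 passed (median 0.01), and Meis1, Meis2 and Meis3 were at most 2.36 RPM in a library.

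Among 17 genes of the signals that act on Hox expression in the embryo (Cdx, T, retinoid, Wnt, Fgf8 and Gdf11), 9 were tested and 2 fell, against 1.81% of all genes. One was Cyp26a1, the gene of an enzyme that breaks down retinoic acid. This gene passed the low-value filter through GSC libraries alone, so nothing is read from its call. It was at 1.81 ± 0.353 RPM in GSCLC lines and 7.98 ± 1.73 RPM in GSC lines (-1.67 ± 0.35, limma adjusted p = 0.0277), and the call held in 19 of 27 alternatives. The other was T, the mesoderm factor Brachyury (-2.44 ± 0.58, limma adjusted p = 0.0453), whose call held in 12 of 27 alternatives. Cdx4 was at 0 in every library.

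Levels elsewhere on chromosome 6 moved with the members in part. From 80 Mb on chromosome 6, a boundary set after the profile was seen, the 312 tested genes had a median log2 difference from the mean of both GSC lines of -0.00 in GSCLC_1, 0.47 in GSCLC_2, -0.10 in GSCLC_3 and 0.56 in GSCLC_4. The Hoxa cluster lies outside this stretch. Below 80 Mb the medians over 223 genes were 0.04, 0.05, -0.10 and 0.17 in GSCLC_1 to GSCLC_4, and on the other chromosomes 0.06 or less in size in 3 lines and -0.08 in GSCLC_3. Within 5 Mb of the cluster, 53 genes had medians of 0.03, -0.00, -0.13 and 0.22, without the Hoxa genes and cluster RNAs. Hoxa10 stood 2.37 above the GSC mean in GSCLC_2 and 2.55 above it in GSCLC_4 on the same scale. Whether copies of this chromosome have a part in the Hoxa levels was not tested.

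The nearest neighbours did not share the pattern in size. Skap2, an adaptor protein gene of immune cells, was at 99.8 RPM in GSCLC_1, 83.7 RPM in GSCLC_2, 65.8 RPM in GSCLC_3 and 151 RPM in GSCLC_4, against 98.4 RPM in GSC_1 and 101 RPM in GSC_2. It was thus lower in GSCLC_2 than in either GSC line. Hibadh, a mitochondrial dehydrogenase gene of valine breakdown, was at 41.2, 35.7, 31.0 and 56.6 RPM in GSCLC_1 to GSCLC_4, against 30.9 RPM in GSC_1 and 39.8 RPM in GSC_2. Over the 8 genes tested within 1 Mb, the median was 0.35 in GSCLC_4, -0.02 in GSCLC_2 and -0.48 in GSCLC_3.

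**Figure D5:**
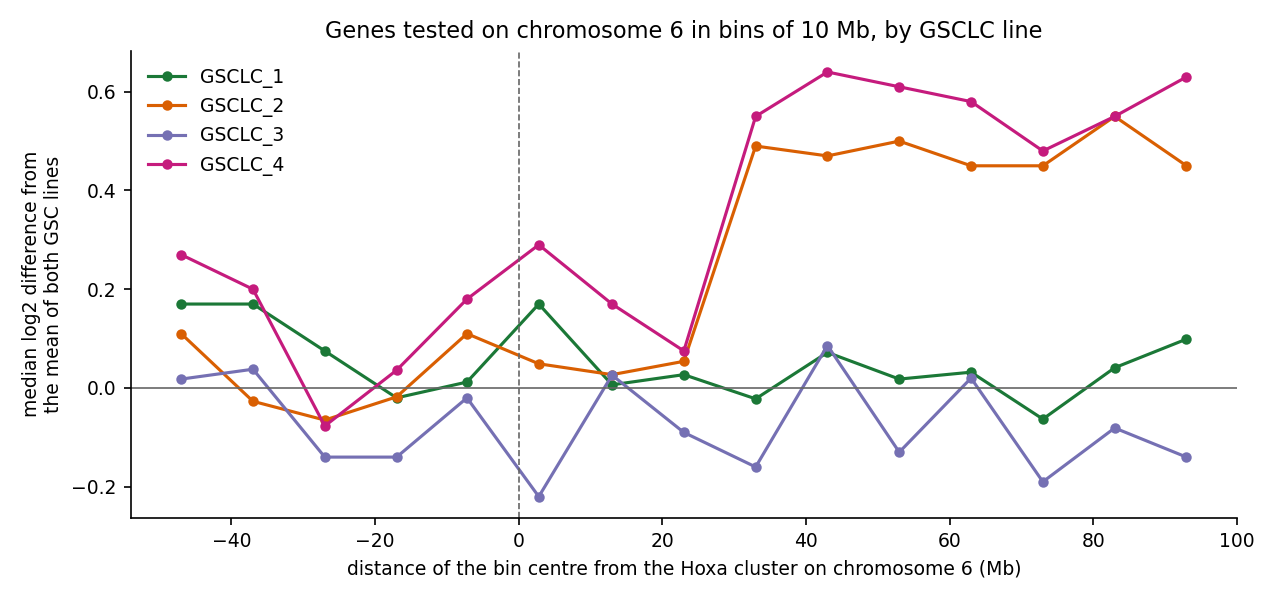
Median log2 difference of tested genes from the mean of both GSC lines in bins of 10 Mb of chromosome 6, plotted by distance (Mb) from the Hoxa cluster (dashed line), one line per GSCLC line. GSCLC_2 and GSCLC_4 step up from the bin centred 33 Mb beyond the cluster to the end, with medians of 0.47 and 0.56 over all genes from 80 Mb; in the bin of the cluster itself the medians are 0.05 and 0.29.

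The genes outside the cluster most like the mean of the 5 members, by Pearson's r over the 12 libraries among genes tested, were Gm19579 (0.976), Nop2 (0.965), Ydjc (0.961), Lor (0.955), 8430410A17Rik (0.950), Gm3625 (0.948), Eif2d (0.942), Aebp2 (0.940), Pde9a (0.937) and Wbp11 (0.936). Of these 10, Nop2, 8430410A17Rik, Aebp2 and Wbp11 lie on chromosome 6 beyond 80 Mb, which as a chromosome holds 4.69% of the tested genes with a known place. Nop2, a methyltransferase gene of ribosomal RNA, was at 166, 211, 129 and 210 RPM in GSCLC_1 to GSCLC_4, against 161 RPM in GSC_1 and 141 RPM in GSC_2. Aebp2, a cofactor gene of Polycomb complex PRC2, was at 68.0, 82.1, 41.2 and 95.6 RPM in GSCLC_1 to GSCLC_4, against 53.9 RPM in GSC_1 and 59.4 RPM in GSC_2. The lowest r were those of Rabggtb (-0.968), Ctbp2 (-0.949), Rpl24 (-0.946), Gm7866 (-0.946) and Ankrd13c (-0.942). With 6 lines and 11788 genes, such rankings describe these libraries only.

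Other cells that a testis culture could hold, fibroblasts above all, also express posterior Hox genes in the body. The 21 fibroblast markers summed to 617 RPM in GSCLC_1, 561 RPM in GSCLC_2, 706 RPM in GSCLC_3 and 775 RPM in GSCLC_4, against 631 RPM in GSC_1 and 1263 RPM in GSC_2. GSC_2 had the highest sum, and GSCLC_2 the lowest. Between GSCLC and GSC lines, 1 of 19 tested fibroblast genes (Twist1) rose and 2 (Col5a1 and Sparc) fell, and the call of Sparc held in 13 of 27 alternatives. Over all genes 1.21% rose and 1.81% fell, which also serves the lists that follow. The 14 Sertoli markers summed to 291 to 407 RPM in GSCLC libraries and 381 to 554 RPM in GSC libraries. Most of this sum was 1 gene, Ctsl, with means of 251, 190, 284 and 260 RPM in GSCLC_1 to GSCLC_4. Ctsl was at 261 RPM in GSC_1 and 344 RPM in GSC_2. Amh was at 0 throughout. Of 7 tested genes 1 (Clu) was lower, a call that held in 19 of 27 alternatives. Wt1, a transcription factor gene of Sertoli and other somatic cells of the gonad, was at 6.92 RPM in GSCLC_1, 25.0 RPM in GSCLC_2, 3.89 RPM in GSCLC_3 and 14.0 RPM in GSCLC_4, against 4.87 RPM in GSC_1 and 1.62 RPM in GSC_2. Unlike the Sertoli sum, it was thus highest in the same 2 lines as the 5 Hoxa genes and lowest among GSCLC lines in GSCLC_3. Aard of the Sertoli list shared this, at 9.33, 11.3, 2.89 and 9.71 RPM in GSCLC_1 to GSCLC_4, against 2.27 RPM in GSC_1 and 1.13 RPM in GSC_2. The other tested Sertoli genes did not, among them Clu and Trf, each highest in a GSC line. Wt1 and Aard are named here after their values were seen. The 9 Leydig and peritubular markers summed to 13.04 to 51.5 RPM in GSCLC libraries and 33.4 to 134 RPM in GSC libraries. Cyp17a1 and Lhcgr of that list were at 0 throughout, and 2 of 4 tested genes (Cyp11a1 and Hsd3b1) were lower. The 10 macrophage and endothelial markers summed to 9.43 to 21.2 RPM in GSCLC libraries and 26.1 to 35.5 RPM in GSC libraries. Of 4 tested genes, 1 (Fcer1g) was lower. Cyp11a1, Hsd3b1 and Fcer1g passed the low-value filter through GSC libraries alone, so nothing is read from their calls. Of 7 tested pluripotency genes, 1 (Pou5f1) was lower, and none of the 15 germ cell genes passed. Utf1 of the pluripotency list shared the pattern of Wt1, at 25.9, 82.4, 24.4 and 53.2 RPM in GSCLC_1 to GSCLC_4. It was at 26.3 RPM in GSC_1 and 7.02 RPM in GSC_2. The other tested pluripotency genes did not share this pattern, and Utf1 too is named after its values were seen. The part of other cells that the cultures could hold in the Hoxa levels was not tested.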

How the data were processed

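RPM for 26219 genes in 12 libraries are the values the authors deposited, in 1 table whose libraries sum to 999885 to 999962. Per the submitters' processing notes, cutadapt 1.3, TopHat 1.4.1, Cufflinks 2.2.0 and the build mm10 (GRCm38) were used; settings and use of strand are not stated in the sources used here. Low values were whole multiples of a per-library step (99.7% to 99.8% within 0.1), which gave implied reads, used for precision only; recovery was not complete, so no count test was run.

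The 11788 genes that reached 5 RPM in 2 or more libraries were analysed as log2(RPM + 1), which understates changes of low genes. GSCLC and GSC lines were compared on means of each line's 2 libraries, and GSC_2 with GSC_1 on libraries. Both used limma 3.58.1 in R 4.3.3 (two-sided, mean-variance trend, Benjamini-Hochberg threshold 0.05). The fits were also run on simulated data, with changes placed only in genes of higher mean level than any member. That run does not speak for genes as low as the members. That lines are independent was not tested. Kind of line and source testis cannot be told apart. Members and lists were chosen with earlier results of these data known. Genes named are the members, Hoxa2 to Hoxa6 and neighbours, list members past the threshold, and the 10 highest and 5 lowest in likeness. Wt1, Aard and Utf1 were added after their values were seen. Annotation came from RefSeq (GRCm38.p6), where 23818 rows matched, and GENCODE M21. Alternatives were pseudocounts, filters, scaling, trend, single replicates, a replicate block, and leaving out libraries or lines.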

Additional observations from a re-analysis of the deposited data

Results flagged for a closer look

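Hoxa3 was flagged because 1 of the 4 GSCLC lines lay far from the others: its mean was 10.5 RPM in GSCLC_4, and the gap to the next line made up 0.932 of the range of the 4 lines. The rule was run on linear RPM. On log2(RPM + 1) the line means were 3.48 in GSCLC_4 and 1.11 to 1.78 in the other GSCLC lines. Chance flags about 1 in 20 such groups, and the rule was run on every Hoxa gene and cluster RNA described here and on Evx1. The same rule flagged none of the 5 genes Hoxa7 to Hoxa13 among the GSCLC lines. The levels in these lines chose the genes, so nothing is read from that.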

How the results depend on the processing

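The count of genes that differed between GSCLC and GSC lines, 356 at the settings reported, was 142 with no filter, 105 with replicate 1 of each line alone and 179 with replicate 2 alone. It was 42 without line GSC_1, 12 without GSC_2, 212 without GSCLC_1, 218 without GSCLC_2 and 536 without GSCLC_3, and 200 to 403 with single libraries left out, lowest without GSCLC_4 replicate 2. Between GSC_2 and GSC_1 the count of 6 was 0 with no filter, 1 without the mean-variance trend and 0 to 1 with single libraries left out. Deviations of same-numbered libraries correlated weakly, at -0.12 to 0.11 over 15 pairs of lines, with 2 above 0.1. Single lists still differed by replicate number. The Leydig and peritubular markers summed to 92.6 and 36.8 RPM in replicates 1 and 2 of GSC_1, and 134 and 33.4 RPM in those of GSC_2. In GSCLC_1, GSCLC_2 and GSCLC_3 replicate 2 was the higher. Whether the replicate numbers mark shared handling was not tested. With the replicate block the counts were 592 and 7.

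Hoxa10 and Hoxa13 kept a positive difference between GSCLC and GSC lines in 27 of 27 alternatives, and passed in 1 of them, Hoxa10 without GSCLC_3 (1.92). Hoxa3, which met the low-value filter through GSCLC_4 alone, passed in 1 as well (2.23, without GSCLC_3). Hoxa11as turned to -0.26 with a pseudocount of 0.1 RPM, -0.04 without GSC_2 and -0.26 without GSCLC_4. Between GSC_2 and GSC_1, Hoxa10 turned to 0.01 with that pseudocount and ran between -0.50 and 0.47 with single libraries left out, above 0 without GSC_1 replicate 1 (0.47) and without GSC_2 replicate 2 (0.17). With single libraries left out, Hoxa3 ran between -0.41 and 0.00, the value without GSC_1 replicate 1. The cause of these changes was not tested. Depth limits Hoxa7, Hoxa9 and Hoxa11 most, with 0 to 32 reads per line.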

Other observations

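GSCLC_3, the line with the lowest levels of the 5 Hoxa genes, also differed from the other lines on chromosome 8, where no Hox cluster lies. The median log2 difference of 623 tested genes of that chromosome from the mean of both GSC lines was 0.41 in GSCLC_3, against -0.02 in GSCLC_1, -0.03 in GSCLC_2 and 0.05 in GSCLC_4. Whether this bears on the Hoxa levels was not tested.

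Among the tested Hox genes of groups 7 to 13 outside the Hoxa cluster, Hoxc8, Hoxc9 and Hoxc10 were highest in GSCLC_4. Hoxc8 was at 1.3 RPM in GSCLC_1, 1.67 RPM in GSCLC_2, 0.283 RPM in GSCLC_3 and 8.21 RPM in GSCLC_4, against 2.38 RPM in GSC_1 and 2.63 RPM in GSC_2. Hoxc9 was at 5.76, 2.94, 0.828 and 10.9 RPM in GSCLC_1 to GSCLC_4, against 6.21 RPM in GSC_1 and 2.49 RPM in GSC_2. Hoxc10 was at 0.64, 0, 0.694 and 3.54 RPM in GSCLC_1 to GSCLC_4, against 2.99 RPM in GSC_1 and 1.9 RPM in GSC_2. None of these genes passed between GSCLC and GSC lines (limma adjusted p = 0.843 for Hoxc8, 0.994 for Hoxc9 and 0.591 for Hoxc10). Hoxb13, the Hoxb paralogue of Hoxa13, was at 16.1, 12.3, 10.4 and 19.4 RPM in GSCLC_1 to GSCLC_4, against 23.8 RPM in GSC_1 and 24.1 RPM in GSC_2, and did not pass either (-0.71 ± 0.26, limma adjusted p = 0.18).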
